A study of Mus musculus with 4 samples.

Results

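The genes described here are the subunits of the transcription factor NF-kB, the feedback inhibitors that its own transcriptional output supplies, and 3 further genes of the same circuit: Tnfaip2, Birc2 and Birc3. They were listed by name as 10 genes, and a probe set was taken when its only gene symbol in the platform annotation was 1 of them. The list was made with earlier results of these data known, so counts set against all probe sets were not fixed beforehand. This gave 10 probe sets for 8 genes, of 13057 probe sets and 6137 named genes over both array types. Nfkb1 and Nfkb2, which encode the precursors of 2 DNA-binding subunits, had no probe set under these names. They are not analysed here. The cells were NIH3T3, an immortalised mouse fibroblast line, stably carrying wild-type PKR behind a promoter that tetracycline represses. In the control state they grew in DMEM with 1 µg/ml tetracycline and 5% fetal calf serum. In the withdrawn state tetracycline had been removed for 5 h, and the labels give no serum content for it. Whether the line is 1 clone is not given in the sources used here. Each state was hybridised once to each of 2 array types with different probe sets, the second marked MB in the sample titles. The design therefore holds 4 arrays, no replicate and no p-value, and the number of arrays limits the precision.

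NF-kB is a dimer of Rel-family proteins that is held in the cytoplasm by I kappa B proteins. When a receptor signal activates the I kappa B kinase, the inhibitor is phosphorylated and degraded, and the dimer enters the nucleus. Some of the genes it then switches on encode its own inhibitors and subunits, and their transcripts are widely used as a readout of the pathway. PKR, the double-stranded RNA kinase encoded by Eif2ak2, is known both for blocking translation and for activating this pathway. The comparison asks which transcripts differ in abundance after withdrawal of tetracycline, which represses the PKR transgene. Cells without the transgene are not among the 4 arrays. Induction of PKR, removal of the drug and any difference in medium therefore cannot be told apart here.

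Values are deposited linear intensities, and a change is the log2 ratio of the array after withdrawal to the array with tetracycline, taken within an array type. A level was read against a control floor, the 95th percentile of 39 bacterial and yeast control probe sets over both arrays of a type, at 281.5 for the first type and 340.4 for the MB type. A probe set counted as different when it changed by at least 2-fold with both values above that floor. Where 1 array lay under the floor, only a bound is given, the bright value over the floor. Such a bound holds against the floor alone, because some controls read above it. The highest control read 447.5 on the first type (with tetracycline) and 1212.8 on the MB type (after withdrawal). In RNA from a whole culture, fewer cells with a transcript and less of it per cell cannot be told apart. The gene encoding PKR was looked at first. The mouse Eif2ak2 probe set gave 643.3 with and 663.6 without tetracycline, a log2 change of 0.045. The species of the transgene is not given in the labels, so this reading does not check them. Of the fibroblast markers, 11 of 12 genes with a probe set were above the floor on both arrays, among them Vim and Thy1. The collagen-binding proteoglycan gene Lum lay under it on both. Summed over probe sets, fibroblast markers read 61025 with tetracycline and 49179 after withdrawal on the first type, and 147426 and 122343 on the MB type.

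Promoter sequence is shown for the members whose upstream window held a match to the kappa B consensus, the site that NF-kB dimers bind, and for which these arrays gave a reading above the floor. The consensus is GGG, a purine, 2 free positions, 2 pyrimidines and CC, searched on both strands. RefSeq start sites on GRCm38.p6 gave 12 windows of 250 bases for 8 of the 10 genes, all but Relb and Nfkb1. A match was found in 6 windows of 4 genes: Nfkbia, Tnfaip3, Tnfaip2 and Nfkb2. Over all 32851 RefSeq windows of this length the share was 7.25%, and over all 27025 genes 8.23%. The 3 windows below run 5′ to 3′ on the strand of the gene and end at the base before the start, with matches in capitals. They lie at chr12:55492648-55492897 (minus strand) for Nfkbia, chr10:19015411-19015660 (minus strand) for Tnfaip3 and chr12:111442411-111442660 (plus strand) for Tnfaip2.
Nfkbia: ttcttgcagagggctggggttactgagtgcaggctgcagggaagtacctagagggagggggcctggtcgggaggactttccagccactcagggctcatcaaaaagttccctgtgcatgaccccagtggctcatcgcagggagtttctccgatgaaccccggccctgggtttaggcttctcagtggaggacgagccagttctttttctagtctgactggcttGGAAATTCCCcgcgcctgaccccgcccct
Tnfaip3: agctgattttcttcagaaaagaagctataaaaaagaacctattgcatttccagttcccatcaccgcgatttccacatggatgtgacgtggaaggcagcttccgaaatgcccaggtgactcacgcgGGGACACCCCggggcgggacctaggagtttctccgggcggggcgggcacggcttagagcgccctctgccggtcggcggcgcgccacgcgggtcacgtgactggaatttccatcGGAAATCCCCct
Tnfaip2: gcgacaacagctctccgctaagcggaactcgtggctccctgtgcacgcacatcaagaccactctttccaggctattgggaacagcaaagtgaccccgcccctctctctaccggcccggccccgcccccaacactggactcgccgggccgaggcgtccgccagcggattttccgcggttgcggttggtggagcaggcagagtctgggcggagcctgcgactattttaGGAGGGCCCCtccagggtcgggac
The Nfkbia match lay 20 to 29 bases before the start and read on the opposite strand. Tnfaip3 had a match at 3 to 12 bases before the start, also on the opposite strand. Another, which reads as a match on both strands, lay at 116 to 125 bases. The other annotated Tnfaip3 start had none. The Tnfaip2 match lay 15 to 24 bases before the start and read on the opposite strand. No match was found upstream of Nfkbib, Rela, Birc2 or Birc3, which says only that these letters are not in those windows. A match describes the sequence and does not show binding.

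Across the set, all 10 probe sets read higher after withdrawal. Of all non-control probe sets, 46.6% did so on the first type, and 53.7% did so among those of the MB type. Both values were above the floor for 6 probe sets, and 4 of these, from the 3 genes Relb, Nfkbia and Tnfaip2, were at least 2-fold higher. By array type these were 1 of 3 on the first type, against 1.88% of 3555 probe sets, and 3 of 3 on the MB type, against 1.97% of 2738. Those 3 are both Nfkbia probe sets, which are not independent, and Tnfaip2, which lay only 1.06 times above the floor with tetracycline. None was 2-fold lower, against 1.29% and 0.767%. In 3 more probe sets (Nfkbib, Tnfaip3 and Birc2) the tetracycline array alone lay under the floor, and in 1 (a Tnfaip2 probe set) both did, so the direction of that last one carries no weight. On the MB type 54 probe sets were 2-fold higher and 21 lower, a split that became 40 and 29 with quantile normalization and 40 and 30 with the level trend removed.

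**Figure D1:**
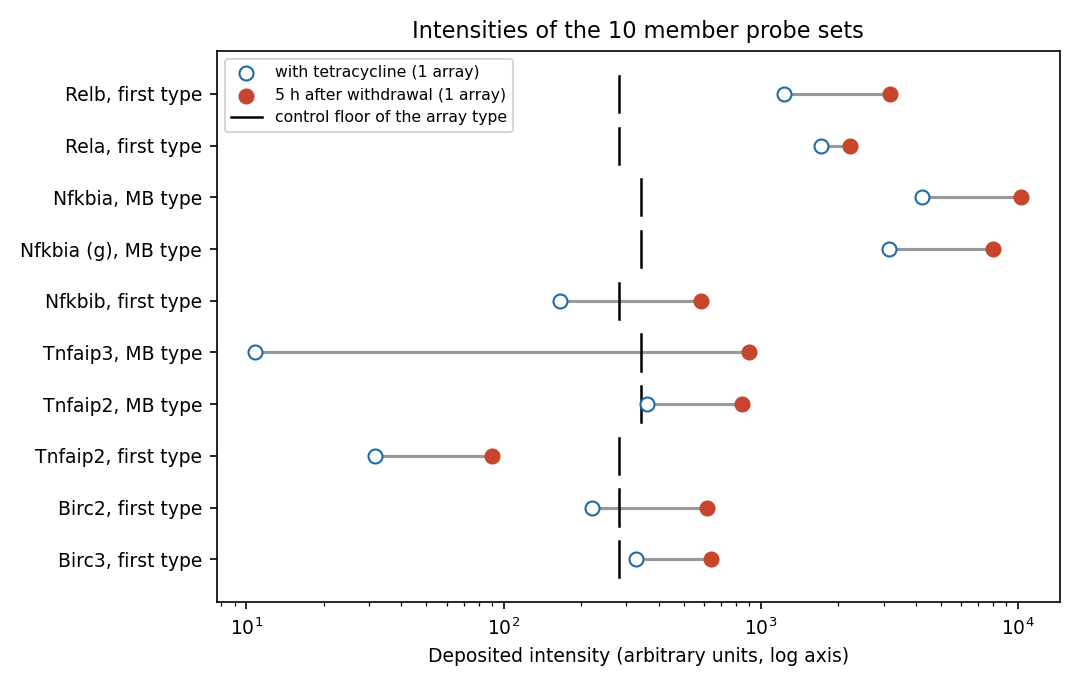
Deposited intensity (log axis, arbitrary units) of each member probe set on the array with tetracycline (open blue) and after 5 h without it (filled red), joined by a line, with the control floor of its array type as a black tick; g marks the second Nfkbia probe set. Each point is 1 array, and every red point lies to the right of its blue one, from 10.8 to 901.4 for Tnfaip3 and from 1704.5 to 2213.7 for Rela.

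Of the DNA-binding subunits, Relb was higher and Rela differed little. Relb encodes the subunit of the non-canonical pathway and is itself transcribed under NF-kB control. Its probe set read 1230 with tetracycline and 3165.2 after withdrawal. Both values lay well above the floor, at 4.37 and 11.2 times its level, and none of the 39 bacterial and yeast controls on the same arrays read as high. The log2 change was 1.36, a 2.57-fold difference, and ranked 16 of the 3555 probe sets measured on both arrays of the type. As a yardstick, the 200 probe sets closest to it in level had changes with a robust SD of 0.35. That spread holds noise and real differences together and is not a replicate error. Rela encodes the transactivating subunit of the canonical dimer and is made constitutively in most cells. It read 1704.5 and 2213.7, a log2 change of 0.38 that was close to the spread of 0.35 at its level and ranked 625. Relb and Rela were read on the same arrays, and the difference between their changes has no test with 1 array per state.

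Nfkbia encodes I kappa B alpha, the inhibitor that NF-kB resynthesises within the first hours of its own activation. Of its pair of probe sets on the MB type, the first gave 4233.2 with tetracycline and 10290.9 after withdrawal. The second, marked g, gave 3155.1 and 8014.1. All 4 values lay far above the floor, at 9.27 to 30.2 times its level, and both probe sets moved the same way. The log2 changes were 1.28 (2.43-fold) and 1.34 (2.54-fold), ranked 17 and 12 of 2738. The spread at their level was 0.28 and 0.29. Both probe sets carry the same source sequence in the annotation and may share probes, so they are not independent readings of the gene.

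Nfkbib encodes I kappa B beta, a related inhibitor whose resynthesis is slower. It read 165.3 with tetracycline, under the floor, and 584.3 after withdrawal, above it. The bound against the floor was 2.08-fold, and 3 of the 39 controls read above the floor on the tetracycline array, up to 447.5. Bounds of 2-fold or more in this direction were found for 0.767% of the 6523 probe sets of the first type. That base includes the 3555 above the floor on both arrays, which could not have a bound. The share among probe sets that could have one is therefore larger. On the tetracycline array 7 of the 39 control probe sets read higher than Nfkbib, and on the withdrawn array none did.

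Tnfaip3 encodes A20, a ubiquitin-editing enzyme that shuts down signalling from the TNF receptor to the I kappa B kinase. It read 10.8 with tetracycline, under all 39 control probe sets, and 901.4 after withdrawal. The bound against the floor was 2.65-fold, and 0.566% of the 6534 probe sets of the MB type had a bound of 2-fold or more in this direction. That base also includes the 2738 above the floor on both arrays, which could not have a bound. On the withdrawn array 1 of the 39 controls, the bacterial BioDn 3′ probe set, read higher still, at 1212.8. It had read 263.8 with tetracycline, so it crossed the floor between the same arrays, and it was the only bacterial or yeast control with a bound of 2-fold or more on either type. Antisense probe sets of mouse control genes also crossed the floor on the first type, with values given beside Birc2 and Birc3. The raw ratio of the Tnfaip3 readings rests on a value at the bottom of the scale and is not given as a fold change.

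**Figure D2:**
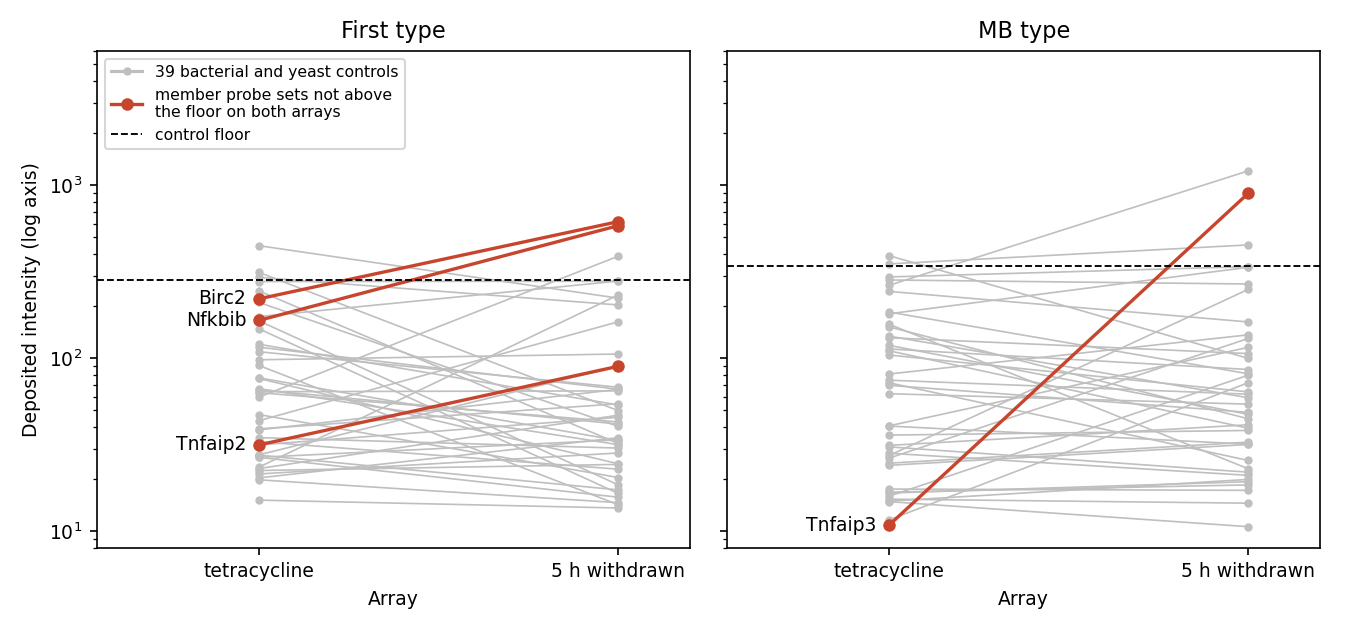
Deposited intensity (log axis) on the tetracycline and the withdrawn array for the 39 bacterial and yeast controls of each type (grey) and the members not above the floor on both arrays (red), with the floor dashed. Birc2 (616.4) and Nfkbib (584.3) end above every bacterial and yeast control of the first type. Tnfaip3 (901.4) ends above all of those of the MB type but BioDn 3′ (1212.8). Antisense controls of mouse genes are not drawn.

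Tnfaip2, a gene first found as induced by TNF in endothelial cells, encodes a cytoplasmic protein linked to membrane protrusions and is not itself an NF-kB inhibitor. Its MB probe set read 360.2 with tetracycline and 844.1 after withdrawal. The first value lay only 1.06 times above the floor, and 1 of the 39 controls read higher on each array. The log2 change was 1.23 (2.34-fold), ranked 19 of 2738, with a spread of 0.46 at this level. On the first array type a probe set of the same gene read 31.5 and 89.8, both under the floor, so neither a fold nor a direction is read from it.

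Birc2 and Birc3 encode cIAP1 and cIAP2, ubiquitin ligases that carry the signal from the TNF receptor to the canonical pathway and restrain the non-canonical one. They are close paralogs and direct neighbours on chromosome 9, with no annotated gene between their starts, and RefSeq lists each symbol as a synonym of the other. Which probe set belongs to which gene thus rests on the annotation's Entrez identifiers. The Birc2 probe set read 220.3 with tetracycline, under the floor, and 616.4 after withdrawal, a bound of 2.19-fold against the floor. On the tetracycline array 5 of 39 controls read higher than Birc2, and on the withdrawn array none did. The Birc3 probe set read 327 and 637.7, both above the floor, the first by 1.16 times. Its log2 change of 0.96 (1.95-fold) was just under the 2-fold limit and ranked 79 of 3555, with a spread of 0.50 at its level. Whether either probe set also detects the paralog was not tested. On the same arrays the antisense control probe sets at the 3′ ends of beta-actin and Gapdh went from 68.8 to 695.2 and from 272.7 to 1081.3, and their bearing on readings of this level (Nfkbib, Birc2 and Birc3) was not tested. The related inhibitor of apoptosis Xiap, with 2 probe sets on the first type, read 33.4 and 29.8 on 1 and 87.4 and 28.7 on the other, all under the floor.

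Ordered by log2 change, the genes measured above the floor on both arrays were Relb (1.36), Nfkbia (1.31, the median of its probe sets), Tnfaip2 (1.23), Birc3 (0.96) and Rela (0.38). The first 3 lay within 0.14 of one another on the log2 scale, less than the spread of 0.28 to 0.46 at their levels, so their order lies within that spread. The median of these 5 genes was 1.23, against -0.0066 for all 3582 genes measured in this way. As the members were chosen with earlier results known, this contrast is a description only. These 5 are not the whole set, since genes dim in the control state could enter only as bounds.

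**Figure D3:**
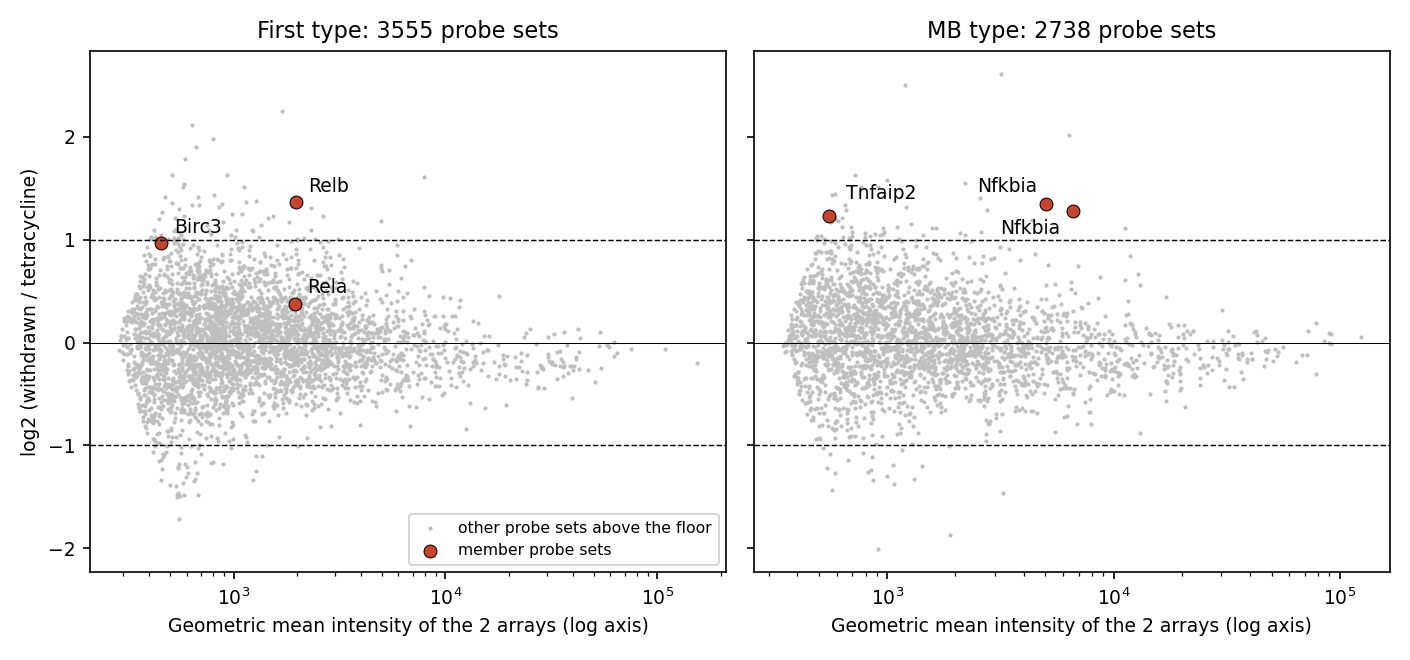
Log2 of withdrawn over tetracycline intensity against the geometric mean intensity of both arrays (log axis) for each probe set above the floor on both arrays of the first type (left) and the MB type (right). Grey points are other probe sets, red points the members, and dashed lines mark 2-fold; Relb (1.36) and both Nfkbia probe sets (1.28 and 1.34) lie above the upper line at levels where few grey points do, and Rela (0.38) lies within the grey cloud.

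The rest of the pathway was described from 5 lists of genes grouped by role. Of 83 probe sets for 68 genes, 49 were above the floor on both arrays. Of these 2 were at least 2-fold higher (4.08%) and none was 2-fold lower, against 1.92% and 1.06% of the 6293 probe sets measured on both types together. The share for these lists thus rests on 2 probe sets. A further 7 were above the floor on 1 array only, with bounds of 1.03- to 1.59-fold, all short of 2-fold. Those of Tnfrsf1b, Traf2, Cxcl12, Nos2 and Plau were above it with tetracycline only. Those of Traf5 and Bcl2l1 were above it after withdrawal only.

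Among receptors and adaptors, 10 of 15 genes were measured above the floor, with a median log2 change of 0.16. Bcl10, the adaptor that links antigen receptor signals to the I kappa B kinase, was the 1 gene past 2-fold. It read 838.5 and 1787.4 (log2 change 1.09). The brightest probe set was that of the lymphotoxin receptor Ltbr, at 3031.1 and 2806.1 (-0.11). The TNF receptor Tnfrsf1a read 2376.7 and 2264.6 (-0.070). The adaptor Myd88, used by Toll-like and interleukin receptors, read 753.1 and 1220.3 (0.70) and stayed short of 2-fold.

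Of the kinases, 5 of 7 genes were measured and none passed 2-fold in either direction, with a median of 0.045. Map3k7, which encodes the kinase TAK1 upstream of the I kappa B kinase, was the brightest at 977.3 and 867.9 (-0.17). The regulatory subunit gene of the I kappa B kinase itself, Ikbkg, read 782.9 and 519.6 (-0.59). The catalytic subunit genes Chuk and Ikbkb had no probe set under these names.

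Other subunits, inhibitors and cofactors gave 8 measured genes of 10, none past 2-fold, with a median of 0.17. Skp1, a component of the ubiquitin ligase that marks I kappa B for degradation, read 3708.9 and 2147.3 (-0.79). Of the nuclear I kappa B family members, Nfkbiz read 826.6 and 1371.1 (0.73) on the first type, and Bcl3 read 1414.6 and 1503.8 (0.088) on the MB type. A Bcl3 probe set on the first type lay under the floor on both arrays. Rel, the third transactivating subunit, read 22.6 and 72.9, both under the floor of the MB type.

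NF-kB target genes outside the set gave 26 measured probe sets for 23 genes, with a median gene change of 0.060 and 14 genes above 0. The 1 past 2-fold was Gadd45b, an inhibitor of JNK signalling, at 3163.1 and 12825.6 (2.02). Abundant targets did not share this size of change. The chemokine Ccl2 read 9845.4 and 11759.7 (0.26), the adhesion molecule Vcam1 8869.4 and 9102.7 (0.037), and the ferritin gene Fth1, the brightest of the list, 35550 and 30618 (-0.22). The mitochondrial superoxide dismutase Sod2 read 5296.5 and 7970.8 (0.59). Myd88, Ikbkg, Nfkbiz, Ccl2, Vcam1, Sod2, Bcl3, Rel and Tnfrsf1a were picked for their role after their values were seen. The difference in change between the members and their targets was not tested.

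**Figure D4:**
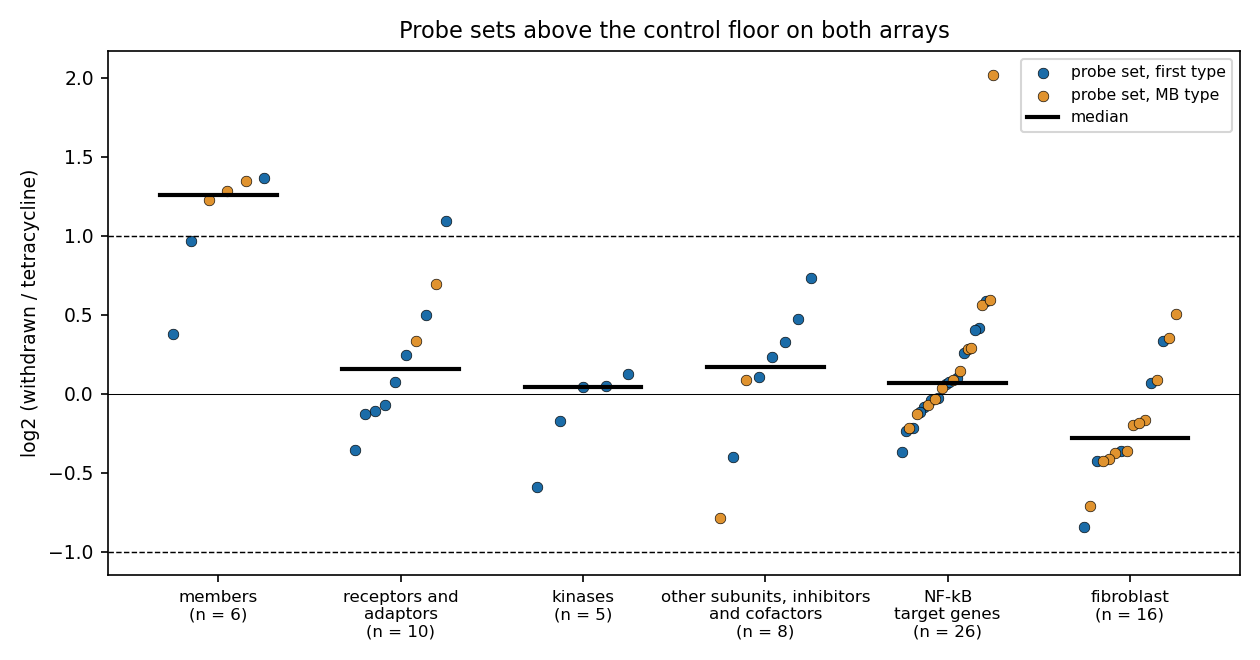
Log2 of withdrawn over tetracycline intensity for each probe set above the floor on both arrays, for the members, 4 pathway lists and the fibroblast markers (blue: first type, orange: MB type, bar: median over probe sets). Dashed lines mark 2-fold. Above the upper line lie 4 of the 6 member probe sets, both of Nfkbia among them. This stands against 1 of 10 for receptors and adaptors (Bcl10), 1 of 26 for targets (Gadd45b) and none for the other lists.

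Markers of cells in which NF-kB genes are often abundant were read alongside. Of the 9 macrophage and leukocyte markers with a probe set, 4 were above the floor on both arrays and none of these passed 2-fold. Of these, 3 had a change above 0, and the median was 0.16. The macrophage lysozyme gene Lyz2 read 432.7 and 562.8 (0.38), and the T cell receptor component Cd3e read 638.9 and 753.3 (0.24). The pan-leukocyte gene Ptprc read 710.1 and 363.9 (-0.96), and the macrophage markers Adgre1, Csf1r and Cd68 lay under the floor on every array. The list summed to 2314 and 2047.7 on the first type, and the MB type gave 3336.2 and 3629.9, mostly Cd14 there (3222.2 and 3425.7). Epithelial markers summed to 1025.2 and 1175.2 on the first type and to 257 and 458.8 on the MB type, with Krt8 alone above the floor on both arrays. Endothelial markers summed to 226.6 and 227.2 on the first type and to 847.1 and 539.1 on the MB type, with no probe set above the floor on both arrays. Their part in the changes of the members was not tested.

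The probe sets most like each member past 2-fold were found by the distance in log2 tetracycline level and log2 change together, over the 2 arrays of a type. The search covered only non-member probe sets with 1 symbol that were above the floor on both arrays. On the MB type 2001 of 6534 probe sets had 1 symbol, so closer ones without a symbol could not be found. For Relb they were Sash1 (1185.9 to 3016, distance 0.055), the splicing regulator Rbm39 (1187.4 to 2979.9, distance 0.062) and the immediate early transcription factor Egr1 (1475.5 to 3665, distance 0.27). For Tnfaip2 they were Nos1, Septin4 and Nr2c2, at distances of 0.10, 0.11 and 0.20. For Nfkbia no probe set in this search was as close. The nearest were Slc3a2, a subunit of amino acid transporters (0.49 from the second probe set and 0.55 from the first), and Ext1 (0.54 from the first), with changes of 0.86 and 0.76. Next came the splicing regulator Tra2b (0.55 from the second) and the transcription factor Nfe2l1 (0.72 from the first and 0.55 from the second), with changes of 0.91 and 0.80. All 4 stayed short of 2-fold. With 2 arrays such nearness describes one pair of readings and carries nothing on shared control.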

How the data were processed

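Total RNA of both culture states was measured on 2 array types, 1 array per state and type, and whether both arrays of a state used the same RNA is not given in the sources used here. Each deposited table gives linear intensities, 1 value for each probe set on each array. How the authors made these intensities is not given in the sources used here, and the tables carry no detection calls. Their 2% trimmed means were 999.9 and 1000.4 on the first type and 996.6 and 997.3 on the MB type, so deposited values were used without scaling. Probe sets took symbols from the platform annotation, updated through Entrez identifiers to RefSeq (GRCm38.p6): 5541 of 6523 had 1 symbol on the first type and 2001 of 6534 on the MB type. No build is named by the files. Members, lists, the floor and the naming rule were chosen with earlier results of these data known. Named are all member probe sets, the genes past 2-fold and the brightest gene of each list, and the 3 probe sets nearest to each member past 2-fold. Genes named beyond this rule are said to be so or serve as marker examples. The counting was tested on simulated arrays, with changes planted only in probe sets well above the floor. Recovery of changes near the floor and the bounds were not covered by it. Alternatives were 3 scalings, 3 floors, limits of 1.5-fold and 3-fold, each array type alone and the brightest probe set per gene. Values were computed in Python 3.11.15 (pandas 2.3.3, numpy 2.4.6, statsmodels 0.14.6, scipy 1.17.1) and drawn with matplotlib 3.10.9.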

Additional observations from a re-analysis of the deposited data

Results flagged for a closer look

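Some antisense probe sets of the mouse control genes, which enter no count above, gave signal over the control floor after withdrawal on the first array type and at least 2 times that with tetracycline. The beta-actin 3′ antisense probe set read 68.8 with tetracycline and 695.2 after withdrawal, 10.1 times as high. The Gapdh 3′ and 5′ antisense probe sets read 272.7 and 1081.3 (3.97 times) and 100.1 and 342.8 (3.42 times). The middle Gapdh antisense probe set went the other way, from 626.1 to 248.1, and the beta-actin 5′ and middle antisense probe sets were over the floor already with tetracycline (386.5 and 287.3). On the MB type the beta-actin 3′ antisense probe set read 773.5 and 604.4, the Gapdh 3′ one 444.2 and 810.1, and the Gapdh 5′ one 80.7 and 74.0.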

How the results depend on the processing

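No paired analysis was possible because each state has 1 array per type. For the 6 member probe sets above the floor on both arrays, the change kept its direction under the 3 scalings. It also moved by less than the spread at its level. Relb ranged over 1.31 to 1.36, the first Nfkbia probe set over 1.28 to 1.37, Tnfaip2 on the MB type over 1.13 to 1.23 and Birc3 over 0.96 to 0.99. The other members kept their sign, but the spread was taken from probe sets above the floor and does not describe them. The median of the member genes was 0.96 on the first type alone, 1.27 on the MB type alone and 1.23 with the brightest probe set. The floor and the limit moved the counts. At the lower floor (129.7 and 80.0), 3 of 5 measured member probe sets of the first type were 2-fold higher, with Nfkbib and Birc2 added. On the MB type 3 of 3 were. All probe sets gave 192 higher (4.36% of 4402) and 177 lower on the first type. The MB type gave 369 higher (8.46% of 4360) and 290 lower. The pathway lists had 3 higher and 3 lower. With no floor 4 of 6 member probe sets of the first type and 4 of 4 of the MB type were higher. All probe sets gave 662 higher (10.1% of 6523) and 868 lower on the first type. The MB type gave 1005 higher (15.4% of 6534) and 805 lower. The pathway lists had 8 higher and 10 lower. At 1.5-fold 2 of 3 member probe sets of the first type and 3 of 3 of the MB type were higher. All probe sets gave 315 higher (8.86% of 3555) and 237 lower on the first type. The MB type gave 241 higher (8.8% of 2738) and 142 lower. The lists had 6 higher and 2 lower. At 3-fold 0 of 3 member probe sets remained on either type. All probe sets gave 8 higher (0.225%) and 1 lower on the first type. The MB type gave 4 higher (0.146%) and 2 lower, and the lists had 1 higher. Control probe sets bound what dim readings show: 5 and 12 of 39 were 2-fold higher and lower on the first type with no floor, and 6 and 8 on the MB type.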

Other observations

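Upstream windows with a kappa B match were also counted for the other genes on the arrays, after the member windows had been seen. Of genes at least 2-fold higher above the floor on the MB type, members left out, 6 of 17 had a match in at least 1 window, 35.3%, against 94 of 699 genes not past 2-fold, 13.4%. Counted by window, where a gene with several starts counts once for each, these shares were 21.4% of 28 and 10.5% of 911. On the first type the shares by gene were 7 of 47, 14.9%, and 231 of 2220, 10.4%. By window they were 13.5% of 52 and 8.77% of 2827. Of genes at least 2-fold lower, 1 of 8 had a match on the MB type, 12.5%, and 3 of 39 on the first type, 7.69%. No test was run, and the 35.3% share rests on few genes.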
